A study of Mus musculus with 2 samples.

Results

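Immune cells made up 106 of the 4648 cells kept from 2 single-cell RNA-seq libraries of healed mouse skin wounds. A cell was counted as immune when it met 3 conditions. At most 10% of its unique molecular identifiers (UMIs, each marking a captured transcript) were mitochondrial. At least 3 of the 6 leukocyte genes Ptprc, Cd68, Tyrobp, Fcer1g, Laptm5 and H2-Aa had a UMI. Pecam1, Sox10 and Rgs5, markers of endothelial cells, Schwann cells and pericytes, had at most 2 UMIs together. The control library held 73 such cells among 2856 (2.56%, exact 95% Clopper-Pearson interval 2.01 to 3.20%), and the SM22-SmoM2 library held 33 among 1792 (1.84%, 1.27 to 2.58%), so the intervals of the 2 shares overlapped. Each group was 1 library of pooled wounds, so no difference between groups could be tested, and every interval given here covers counting error only.

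In mice of both groups the promoter of SM22 (Tagln), a gene of smooth muscle and of contractile wound cells, drove the doxycycline-dependent activator rtTA. Doxycycline (20 g/kg) was given from 1 day after wounding, so that tetO-Cre recombined the R26 locus in SM22+ cells. Control mice (SM22rtTA, tetO-Cre and R26-Tomato alleles) switched on the Tomato reporter alone, and SM22-SmoM2 mice switched on Tomato together with SmoM2, an active form of the Hedgehog (Hh) signal transducer Smoothened. The mice were 4 to 5 weeks old, the wounds had been fully re-epithelialized for 3 days when collected, and Tomato+ cells of the dermis were sorted. The immune cells therefore passed a gate for a reporter that stays on from the R26 locus once Cre has acted, so current Tagln levels do not show whether a cell was recombined. Tagln stood at 4.77 CPM (UMIs of a gene per 1000000 UMIs summed over the cells) in immune cells and 223 CPM in all other cells of the control library, and at 33.4 and 200.003 CPM in the SM22-SmoM2 library. Tomato is not among the counted genes, so whether the immune cells carried the reporter could not be read from these counts.

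Macrophages clear debris and dead cells from a wound and secrete factors that act on fibroblasts and vessels. Dendritic cells take up antigen and present it to T cells on MHC class II molecules, and Langerhans cells do so in the epidermis. Macrophages that settle in skin either persist there or are replaced by blood monocytes, which lose Ly6c2 and gain complement C1q and MHC class II genes as they mature.

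The rule itself set how many markers the members carry. Of the members, 58 control and 31 SM22-SmoM2 cells had 5 or 6 of the 6 markers, and 5 and 2 cells had exactly 3. Just outside the threshold, 22 and 16 cells had exactly 2 markers, with a median of 2 UMIs over the 6 genes. The median depth of immune cells was 7177 UMIs in control (3325 to 28707) and 9324 in SM22-SmoM2 (3178 to 27827), against 8682 and 8832 in the other cells. Immune cells had fewer genes detected, with medians of 2037 and 2442 against 2876 and 2724. The limit on endothelial, Schwann and pericyte transcripts removed 30 control cells and 3 SM22-SmoM2 cells that had at least 3 immune markers.

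Ptprc, the leukocyte antigen CD45, had a UMI in 58.9% of control and 78.8% of SM22-SmoM2 immune cells, and in 0.611% and 0.398% of the other cells. As the rule used Ptprc, this contrast follows from the selection. Genes that the rule did not use marked these cells as leukocytes. The adhesion GPCR Adgre1 (F4/80, a macrophage marker) stood at 253 (control) and 223 CPM (SM22-SmoM2) in immune cells, against 1.09 and 0.172 CPM in other cells. Cd52, a surface glycoprotein of leukocytes, had a UMI in 64 of 73 and 32 of 33 immune cells. The complement gene C1qa stood at 2161 and 3611 CPM in immune cells and at 9.43 and 2.46 CPM in other cells.

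The 20 genes with the highest ratio of immune over other cells, ranked by the lower of the ratios in the 2 libraries, included the chemokines Ccl3, Ccl4 and Pf4, the C-type lectins Clec4a1, Clec4a3, Clec4b1, Clec12a and Cd207, the C1q genes C1qa and C1qc, and the receptors Trem2, Cd72, Cd300ld and Fcrls. In SM22-SmoM2, Cd207 had 13 UMIs in 2 cells, 92.3% of them in 1 cell. Their log2 ratios ran from 7.51 (Ms4a4c and Cd52, control) to 11.31 (Ccl4, SM22-SmoM2). As the members were picked from the same cells, these ratios describe the cells and test nothing. Of all genes compared, 11.1% in control and 13.6% in SM22-SmoM2 were at least 2-fold higher in immune cells, and 25.8% and 26.5% were at least 2-fold lower.

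The summed macrophage list stood at log2 5.89 (control) and 6.67 (SM22-SmoM2) over other cells, classical complement and its receptors at 6.27 and 8.56, and Fc receptors and adaptors, which include the rule genes Tyrobp and Fcer1g, at 6.99 and 9.25. Most genes of these lists had enough counts to be compared only through the immune cells, so no count of their members is read as a result. The wound growth factor list stood nearer to other cells (log2 0.84 in control and 0.86 in SM22-SmoM2). Within it, the secreted Il1 antagonist Il1rn was at 446 and 259 CPM in immune cells and at 2.78 and 1.37 CPM in other cells, whereas the platelet-derived growth factor gene Pdgfa was at 68.3 and 64.0 CPM in immune cells and 134 and 72.8 CPM in other cells. Fgf9 had 0 UMIs in the immune cells of both libraries. The fibroblast list was lower in immune cells, with log2 ratios of -1.70 and -1.39 and all 8 of its genes at least 2-fold lower in both libraries.

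Targets of Hh signalling were near the limit of detection in immune cells. Gli1, a transcription factor that Hh signalling induces, had 1 UMI in control and 2 UMIs in SM22-SmoM2 immune cells, and Ptch1, the Hh receptor and another induced gene, had 3 UMIs in each. In the other cells Ptch1 stood at 12.8 (control) and 111 CPM (SM22-SmoM2), and Gli1 at 3.29 and 24.5 CPM. The whole Hedgehog list of 5 genes had 11 and 17 UMIs in immune cells, or 17.5 and 47.3 CPM (log2 1.44, 0.26 to 2.68), against 55.7 and 220.3 CPM in other cells. In macrophage-like cells it stood at 3.56 and 32.5 CPM (log2 3.19, 0.34 to 8.64). There each gene of the list had at most 3 UMIs over both libraries, too few for this ratio to be read as a difference. No gene of the list had enough UMIs in immune cells to be compared alone between the libraries. The part of free RNA from the other cells was not tested.

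Clustering of the 106 cells gave 6 clusters, of which 2 could be named from marker genes. Cluster 1 (61 cells) had 10 of 12 macrophage genes at least 2-fold above the other immune cells and is called macrophage-like. Cluster 2 (23 cells) had 7 of 12 dendritic cell genes and 3 of 4 Langerhans cell genes raised and is called dendritic cell-like. The remaining 22 cells fell into 4 clusters that could not be named. As the clusters were made from these genes, the levels below describe them and test nothing.

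The macrophage-like cells expressed C1q. C1qa, C1qb and C1qc, the chains of the recognition unit of classical complement, stood at 4362, 4842 and 3294 CPM in cluster 1 and at 29.6, 47.3 and 11.8 CPM in cluster 2. Ms4a7, a membrane gene of tissue macrophages, was at 2823 against 17.8 CPM. The lipid receptor Trem2 was at 605 against 5.92 CPM, and Mrc1, the mannose receptor, at 236 against 53.3 CPM. Leading genes of the cluster by fold were C5ar1, Pf4, Ccl8, Spic and Gpnmb. C1qa had a UMI in 31 of 34 control and 27 of 27 SM22-SmoM2 cells of cluster 1, and in 1 of 22 control cells of cluster 2.

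Cluster 2 combined high MHC class II with genes of dendritic cells. Cd209a, a lectin of monocyte-derived dendritic cells, stood at 977 CPM and had a UMI in 18 of its 22 control cells, against 1.79 CPM in cluster 1. The lectin Mgl2 was at 367 CPM (16.1 CPM in cluster 1). Ccr7, the receptor that guides mature dendritic cells to lymph nodes, was at 343 CPM and found in 11 of the 22 control cells. Cd207 (langerin) was at 805 CPM and found in 7 of them, and Epcam, the adhesion molecule of Langerhans cells, was at 107 CPM. Il1b stood at 2000.4 CPM, against 391 CPM in cluster 1. Markers of cross-presenting dendritic cells were rare, with 3 and 4 UMIs of Xcr1 and 2 and 2 UMIs of Clec9a over all immune cells of the control and SM22-SmoM2 libraries. Some leading genes of cluster 2 rested on a single cell. The chemokine gene Ccl17 had 94.7% of its 113 control UMIs in 1 cell, and all UMIs of Ifng (40) and Gzmc (30) came from 1 cell. Under the 5 other clusterings tried, the cluster that held most of these cells did not meet the naming rule, so the name rests on the clustering used here.

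**Figure D1:**
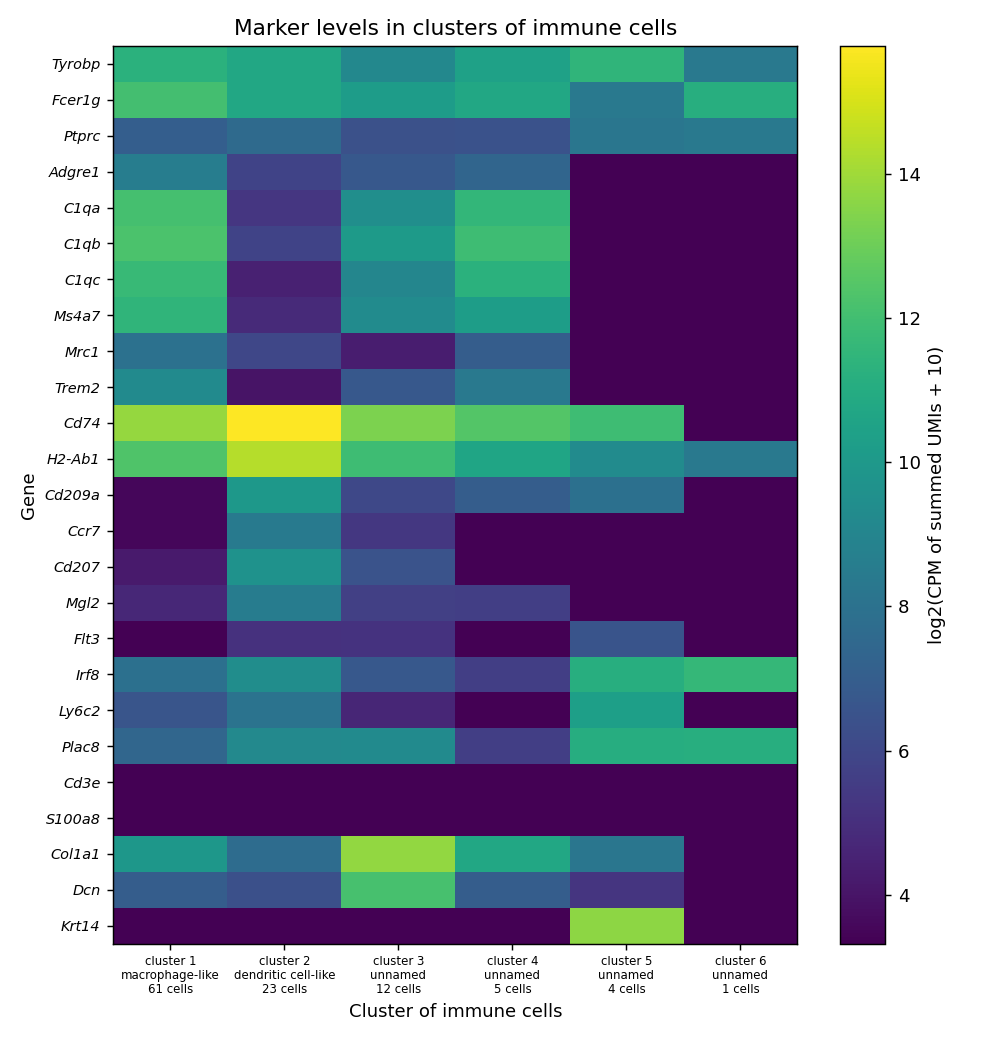
Levels of marker genes (rows) in the 6 clusters of immune cells (columns, with the number of cells), as log2 of CPM of summed UMIs plus 10. C1q genes, Ms4a7 and Trem2 are high in cluster 1, Cd209a, Ccr7 and Cd207 in cluster 2, and Col1a1 and Dcn in cluster 3. Ly6c2 and Krt14 are high in cluster 5, where 1 cell holds all Krt14 UMIs. Irf8 is high in cluster 5 and in the 1 cell of cluster 6. Cd3e and S100a8 have no UMI in any cluster.

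The mix of the clusters differed between the libraries. In control, 34 of 73 immune cells were macrophage-like (46.6%, 34.8 to 58.6%), and in SM22-SmoM2 27 of 33 were (81.8%, 64.5 to 93.0%). Dendritic cell-like cells were 22 of 73 in control (30.1%, 19.9 to 42.0%) and 1 of 33 in SM22-SmoM2 (3.03%, 0.0767 to 15.8%). Neither pair of intervals overlapped over all immune cells. The 167 genes at least 2-fold different between the libraries within macrophage-like cells were also left out before clustering. The shares were then 46.6% and 81.8% for the first class. The cluster that held most of the dendritic cell-like cells had 31.5% and 3.03%, but did not meet the naming rule in that run. As the 167 genes were picked within a cluster of these same cells, near-equal shares test nothing. C1qa, which helped to define the clusters, had a UMI in 39 of 73 control and 30 of 33 SM22-SmoM2 immune cells, and Cd209a, which did so too, in 25 and 2 cells. The dendritic cell list was not uniform. At least 2 of its genes were found in 56 of 73 (76.7%) and 26 of 33 (78.8%) immune cells. These near-equal shares were not kept when every cell was thinned to the same number of UMIs. They were then 20 of 73 (27.4%, 17.6 to 39.1%) and 3 of 33 (9.09%, 1.92 to 24.3%), with overlapping intervals. The lectin gene Clec10a of the list was at 170.02 and 253 CPM. Over all immune cells 2 of its 5 compared genes were at least 2-fold lower in SM22-SmoM2, against 7.61% of all genes. The 2 libraries also differed in the sex of their immune cells, as given below. Among male immune cells alone, 15 of 29 control (51.7%, 32.5 to 70.6%) and 16 of 21 SM22-SmoM2 cells (76.2%, 52.8 to 91.8%) were macrophage-like. Dendritic cell-like cells were 6 of 29 (20.7%, 7.99 to 39.7%) and 1 of 21 (4.76%, 0.120 to 23.8%). Both pairs of intervals overlapped in male cells.

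**Figure D2:**
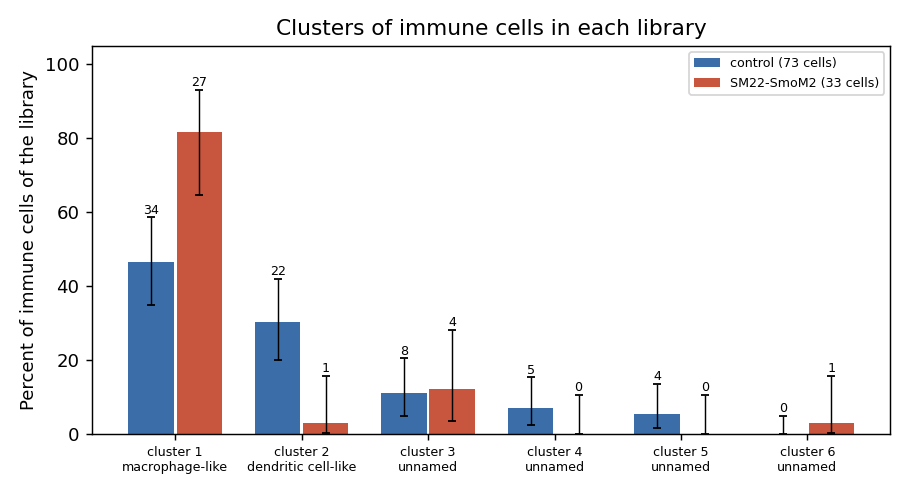
Share of the immune cells of each library (percent, vertical axis) in each of the 6 clusters, with exact 95% binomial intervals as error bars and the number of cells above each bar. Macrophage-like cells are 34 of 73 in control and 27 of 33 in SM22-SmoM2, and dendritic cell-like cells are 22 and 1.

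The 4 unnamed clusters held transcripts of other skin cells or cells too few to name. Cluster 3 (8 control and 4 SM22-SmoM2 cells) had all 8 fibroblast genes raised, a median depth of 15995 UMIs, and a median of 4.46% (control) and 5.05% (SM22-SmoM2) of UMIs in the fibroblast list, against 0.0893% and 0.0806% in cluster 1. Its leading genes were Sfrp4, Sfrp2, Igfbp6 and Thy1, and it also held C1qb (1093 CPM) and H2-Ab1 (3809 CPM). Cluster 4 (5 control cells) combined C1qb (3784 CPM) with Gpm6b (897 CPM), a membrane gene of neural and glial cells. Cluster 5 (4 control cells) had Siglech, Spib, Irf8, Ly6d and Ly6c2 among its higher genes, and Siglech and Spib, known from plasmacytoid dendritic cells, had UMIs in 4 control immune cells each and in no SM22-SmoM2 immune cell. The keratinocyte genes of that cluster came from 1 cell, which held all 448 UMIs of Krt14 and 99.2% of the 517 UMIs of Lgals7. Cluster 6 was 1 SM22-SmoM2 cell with Nkg7 (1573 CPM). The doublet caller Scrublet marked no immune cell. It marked 0.175% of control and 0.614% of SM22-SmoM2 barcodes, and the control share is too low for the caller to be relied on.

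**Figure D3:**
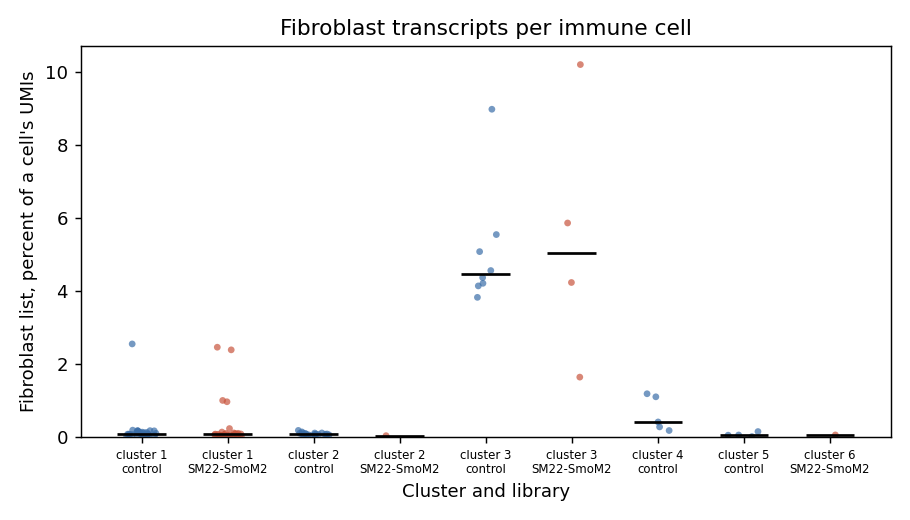
Share of each immune cell's UMIs in the fibroblast list (percent, vertical axis) by cluster and library, with 1 point per cell and a bar at the median. Cells of cluster 3 lie between 1.64% and 10.2%, whereas the medians of cluster 1 are 0.0893% in control and 0.0806% in SM22-SmoM2, with single cells of up to 2.55%.

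Several defining genes of lymphocytes, granulocytes and mast cells had no UMI. Cd3e of T cells, Ms4a1 of B cells, S100a8, S100a9 and Ly6g of neutrophils, and Cpa3 of mast cells had 0 UMIs in the immune cells of both libraries. Only 8 of 10 named T cell genes and 5 of 6 named B cell genes are among the counted genes. Trbc2 and Trdc of T cells and Ighm of B cells are not, so their transcripts could not be seen. For a gene found in 0 of 73 and 0 of 33 cells, a working limit of 3 cells would be 4.11% and 9.09% of cells. The exact Clopper-Pearson upper bounds on the share of cells with a UMI are higher, at 4.93% and 10.6%. Other genes of these lists were detected. The T cell list had 71 UMIs in control and 28 in SM22-SmoM2 immune cells (log2 3.45 and 3.29 over other cells), led by the cytokine receptor Il7r (38 UMIs) in control and by Cd4 (11 UMIs) in SM22-SmoM2. At least 2 T cell markers were found in 7 of 73 and 2 of 33 immune cells. The killer lectin receptor Klrd1 had 21 and 1 UMIs, Csf3r, a growth factor receptor of neutrophils, 10 and 2 UMIs, and Cd8a 6 UMIs in 1 control cell. At least 2 genes of the monocyte list were found in 46.6% of immune and 46.2% of other cells of the control library, so the list did not set immune cells apart. Among its genes, Ly6c2 was found in 14 control immune cells (218 CPM) and the chemokine receptor Ccr2 stood at 87.4 CPM. Of the Ly6c2 UMIs of both libraries, 45 lay in the 4 cells of cluster 5, 43 in cluster 2 and 49 in 3 cells of cluster 1. In SM22-SmoM2 immune cells Ly6c2 was found in 2 cells (8.35 CPM) and Ccr2 stood at 19.5 CPM. In droplet data free RNA can give single UMIs, and the other cells of the control library stood at 3.49 CPM of Ly6c2 and 1.09 CPM of Ccr2. Chil3, Retnla and Nos2, genes often used to mark macrophage activation states, had 0 UMIs in the immune cells of both libraries.

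MHC class II was the list with most UMIs in control immune cells (31216), and it was lower in SM22-SmoM2 immune cells. It holds the antigen-binding chains (H2-Aa, H2-Ab1, H2-Eb1), the invariant chain Cd74, the peptide-loading genes H2-DMa, H2-DMb1 and H2-DMb2, their partners H2-Oa and H2-Ob, and the transactivator Ciita. Genes of this family share a promoter module read by a common set of factors that recruit Ciita. The Y box of the module holds the letters TGATTGG. RefSeq promoter sequences (GRCm38.p6) matched 7 of the 10 genes. The 7 letters occurred, on either strand, in the 250 bases before the start of 6 of these 7 genes and of 7.23% of all 32851 promoters, and were not in that window for H2-DMa. The stretches are shown for the 6 genes that hold the letters, of which H2-Oa and H2-Ob had too few UMIs to be compared between libraries. They read 5′ to 3′ on the strand of the gene, with TGATTGG in capitals, and a match is a description of letters, not of binding.
H2-Aa, chr17:34287837-34287913, minus strand: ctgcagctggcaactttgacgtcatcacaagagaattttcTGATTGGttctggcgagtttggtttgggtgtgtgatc
H2-Eb1, chr17:34305766-34305842, plus strand: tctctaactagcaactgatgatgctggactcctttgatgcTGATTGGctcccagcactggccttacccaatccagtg
H2-DMb1, chr17:34153088-34153164, plus strand: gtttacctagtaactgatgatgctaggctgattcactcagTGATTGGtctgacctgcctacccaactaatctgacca
H2-DMb2, chr17:34145117-34145193, plus strand: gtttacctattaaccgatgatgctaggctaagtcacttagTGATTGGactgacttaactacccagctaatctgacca
H2-Oa, chr17:34092294-34092370, plus strand: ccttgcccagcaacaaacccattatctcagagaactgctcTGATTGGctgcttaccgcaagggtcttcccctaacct
H2-Ob, chr17:34238806-34238882, plus strand: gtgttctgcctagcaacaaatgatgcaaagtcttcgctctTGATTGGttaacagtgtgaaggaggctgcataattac
The first letter of TGATTGG lay from 45 bases (H2-Oa) to 92 bases (H2-DMb2) upstream of the annotated start.

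Over all immune cells the MHC class II list stood at 49601 (control) and 17689 CPM (SM22-SmoM2), a log2 ratio of -1.49 (exact 95% interval -1.53 to -1.45). Without H2-Aa, which the rule used, the ratio was -1.50 (-1.55 to -1.46). Cd74, which escorts class II molecules, was at 26068 and 9424 CPM. H2-Ab1 was at 9909 and 3118 CPM, and H2-Eb1 at 2994 and 1082 CPM. H2-Aa was at 9388 and 3516 CPM, H2-DMb1 at 513 and 239 CPM, and H2-DMb2 at 153 and 44.5 CPM. All 7 genes of the list with at least 30 UMIs over both libraries were at least 2-fold lower in SM22-SmoM2. Of all 3773 genes compared in immune cells, 7.61% were at least 2-fold lower and 3.68% at least 2-fold higher. H2-DMb1 and H2-DMb2 are close copies, so their counts may be split uncertainly between them. H2-Oa had 26 and 3 UMIs and H2-Ob 11 and 1 UMIs.

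The level depended on the kind of cell. Cluster 2 stood at 108372 CPM and cluster 1 at 26657 CPM. Per cell, the list took a median of 10.8% of UMIs in the 22 control cells of cluster 2 (0.222 to 17.6%). It took 2.48% in the 34 control cells of cluster 1 (0.00880 to 12.6%) and 1.01% in its 27 SM22-SmoM2 cells (0.00912 to 11.3%), and the cells of the 2 libraries overlapped over most of this range. Within macrophage-like cells the summed level was 35466 (control) and 17723 CPM (SM22-SmoM2), a log2 ratio of -1.001 (-1.05 to -0.95), and 3 of 7 genes were at least 2-fold lower. Of all 2212 genes compared in macrophage-like cells, 3.62% were at least 2-fold lower and 3.93% at least 2-fold higher.

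Male and female cells, which came from different mice of the pool, differed in MHC class II within the control library. Cells with UMIs of Y-linked genes and none of Xist were taken as male, and the reverse as female. Of the control immune cells 29 were male and 30 female (49.2% male, 35.9 to 62.5%). Of the SM22-SmoM2 immune cells 21 were male and 2 female (91.3% male, 72.0 to 98.9%). Among macrophage-like control cells, the MHC class II list stood at 65709 CPM in the 14 female cells (per-cell median 68276, range 829 to 126015 CPM) and at 16477 CPM in the 15 male cells (median 12362, range 88.0 to 88050 CPM). The 16 male macrophage-like SM22-SmoM2 cells stood at 18048 CPM (median 7262, range 91.2 to 113260 CPM). Among male cells alone the ratio of SM22-SmoM2 over control was thus above 0 for summed UMIs (log2 0.13, 0.06 to 0.21), the reverse of the ratio over all macrophage-like cells, whereas the per-cell median was lower in SM22-SmoM2. The 2 cells with most class II UMIs held 55.4% of those of the male SM22-SmoM2 cells and 38.04% of those of the male control cells. Without the highest cell of each library the ratio was 0.012 (-0.075 to 0.098). Over all male immune cells it was -0.83. The SM22-SmoM2 library held 1 female macrophage-like cell, so female cells could not be compared between libraries.

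**Figure D4:**
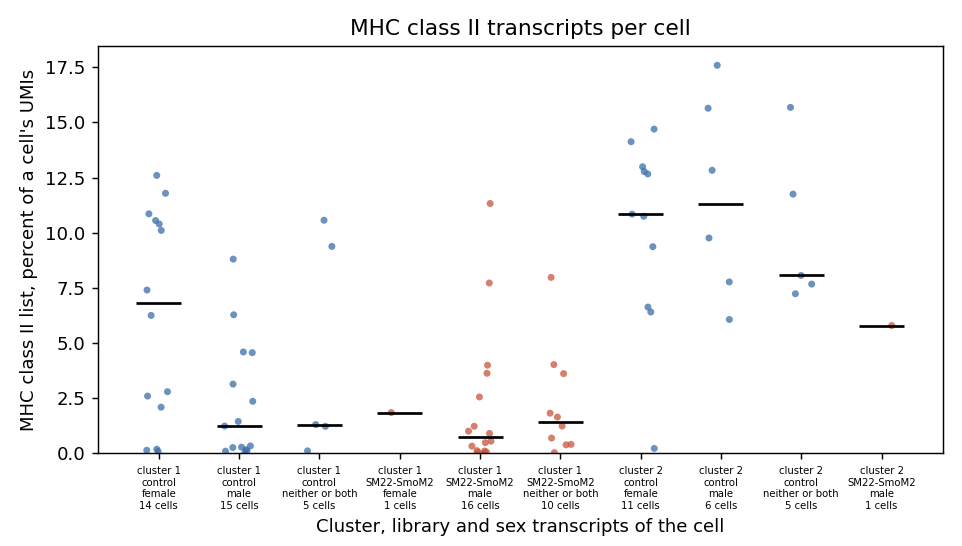
Share of each cell's UMIs in the MHC class II list (percent, vertical axis) for clusters 1 and 2 by library and by sex transcripts of the cell, with 1 point per cell and a bar at the median. The 14 female control cells of cluster 1 have a higher median than its 15 male control cells, with overlapping ranges, and the male cells of the 2 libraries overlap over most of their range.

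The chemokine genes Ccl8 and Ccl12 were the 2 with the highest ratios of SM22-SmoM2 over control among genes at least 2-fold above the other cells of the library where they were higher. They lie close to each other on chromosome 11 (GRCm38, Ccl12 at 82101845 to 82103400 and Ccl8 at 82115185 to 82116799) and encode ligands that attract monocytes and other leukocytes. Ccl8 stood at 229 (control) and 2426 CPM (SM22-SmoM2) in immune cells, a log2 ratio of 3.41 (3.15 to 3.67). It had a UMI in 14 of 73 and 25 of 33 cells. Ccl12 stood at 87.4 and 843 CPM (log2 3.27, 2.85 to 3.71) and had a UMI in 14 and 21 cells. In the other cells of the libraries Ccl8 was at 56.0 and 33.1 CPM, and Ccl12 at 1.02 and 2.86 CPM.

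The difference was also seen within macrophage-like cells. Ccl8 had a UMI in 9 of 34 control and 22 of 27 SM22-SmoM2 macrophage-like cells, with 423 and 3106 CPM (log2 2.88, 2.60 to 3.16). Per cell its median was 0 CPM in control (highest 8388) and 581 CPM in SM22-SmoM2 (highest 18917), so the ranges overlapped. Ccl12 had a UMI in 13 and 19 cells, with 189 and 898 CPM (log2 2.25, 1.82 to 2.71). Without the cell with most UMIs in each library, the log2 ratios were 3.06 and 2.25. Among male macrophage-like cells they were 3.17 (2.82 to 3.55) and 3.56 (2.77 to 4.46). Thinned to 1500 UMIs per cell, Ccl8 was found in 6 of 34 and 15 of 27 cells.

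Their neighbours in the CC chemokine family did not share this ratio. Ccl2, the main monocyte attractant, was at 993 (control) and 833 CPM (SM22-SmoM2) in macrophage-like cells, and Ccl7 at 985 and 1529.8 CPM. Among male macrophage-like cells the log2 ratio of Ccl2 was -0.93 (-1.24 to -0.63) and that of Ccl7 was -0.022 (-0.31 to 0.26). The inflammatory chemokines Ccl3 and Ccl4 were lower in SM22-SmoM2 macrophage-like cells. Ccl3 was at 1202 and 635 CPM (log2 -0.92) and Ccl4 at 1462 and 714 CPM (log2 -1.03). Over all immune cells their log2 ratios were nearer to equal levels, at -0.16 (-0.43 to 0.094) and -0.25 (-0.49 to -0.0049). Of the Ccl4 UMIs in control macrophage-like cells, 34.8% came from 1 cell. In macrophage-like cells the neutrophil attractant Cxcl1 stood at 2280.5 and 963 CPM (log2 -1.24, -1.45 to -1.04). Cxcl2 stood at 10577 and 7959 CPM. The chemokine ligand list does not hold Cxcl1. Of its 12 genes compared in macrophage-like cells, 3 were at least 2-fold higher and 1 (Ccl4) was at least 2-fold lower (3.93% and 3.62% of all genes compared there). The Ccl4 call was not met without the highest cell of each library. Within macrophage-like cells the list as a whole was at 18151 and 18228 CPM. Over all immune cells it was at 10535 and 14882 CPM (log2 0.50, 0.45 to 0.55). There 4 of 14 genes were at least 2-fold higher and 3 lower, against 3.68% and 7.61% of all genes.

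Other genes among the 10 highest ratios in SM22-SmoM2 immune cells had varied roles. Spic, a transcription factor of iron-recycling macrophages, was at 71.5 and 376 CPM (log2 2.39, 1.90 to 2.91). Within macrophage-like cells it was at 153 and 469 CPM, found in 13 of 34 and 16 of 27 cells. The zinc exporter gene Slc30a1 was at 42.7 and 173 CPM there (log2 2.02, 1.09 to 3.07), and the folate receptor Folr2 at 35.6 and 115 CPM (log2 1.70, 0.64 to 2.89). Atp6v0d2, a subunit of the proton pump, was at 39.1 and 130 CPM. Outside those 10, Fcgr1, the high-affinity IgG receptor, was at 331 and 599 CPM (log2 0.86, 0.48 to 1.24). In contrast, Mmp13 ranked among the genes higher in SM22-SmoM2 through 1 cell that held 94.6% of its 56 UMIs, and within macrophage-like cells it had 11 control UMIs and 1 SM22-SmoM2 UMI, too few to be compared.

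**Figure D5:**
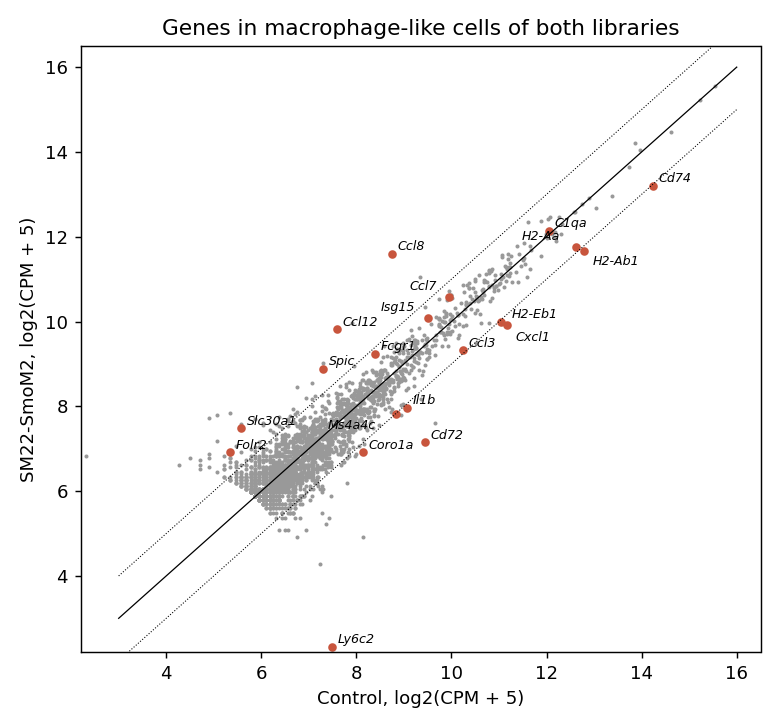
Level of each of the 2212 genes compared in macrophage-like cells, in control (horizontal) and SM22-SmoM2 (vertical), as log2 of CPM plus 5. The solid line marks equal levels and the dotted lines a 2-fold difference. Ccl8, Ccl12, Spic, Slc30a1 and Folr2 lie above the upper line, and Cd72, Coro1a, Cxcl1, Ly6c2 and the class II genes Cd74 and H2-Ab1 lie on or below the lower one. The 49 control UMIs of Ly6c2 come from 3 of 34 cells, with 81.6% in 1 cell.

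The macrophage list was at 9078 and 15411 CPM over all immune cells (log2 0.76, with 2 of 10 genes at least 2-fold higher, against 3.68% of all genes) and at 17347 and 18747 CPM within macrophage-like cells (log2 0.11). Adgre1 was lower there in SM22-SmoM2, at 487 and 256 CPM (log2 -0.93, -1.36 to -0.50). The lysosome list, with the proteases Ctsb, Ctsd and Ctss, was at 34549 and 32710 CPM within macrophage-like cells (log2 -0.079). The repair list stood at 832 and 841 CPM.

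Some named genes were lower in SM22-SmoM2 macrophage-like cells, while the leukocyte signalling list was at 2387 and 2259 CPM there (log2 -0.080, -0.24 to 0.079), with 1 of 9 genes at least 2-fold lower, against 3.62% of all genes. Cd72, an inhibitory receptor, was at 687 and 137 CPM (log2 -2.32, -2.87 to -1.82), found in 24 of 34 and 17 of 27 cells. Its per-cell median was 428 (control) and 108 CPM (SM22-SmoM2). Among male cells the ratio was -1.93 (-2.60 to -1.29). Coro1a, an actin regulator of leukocytes, was at 277 and 115 CPM (log2 -1.27, and -1.43 among male cells). Il1rn was at 647 and 285 CPM (log2 -1.18) and the anti-inflammatory cytokine Il10 at 245 and 108 CPM (log2 -1.18). Il1b was at 534 and 245 CPM (log2 -1.12, -1.56 to -0.70), but among male cells it was at 138 and 204 CPM (log2 0.56, -0.24 to 1.39). Ms4a4c, a membrane gene raised by interferon, was at 452 and 220 CPM overall and at 201 and 215 CPM among male cells.

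Interferon response genes also differed between male and female control cells. These came from different mice, so sex and mouse cannot be told apart. Within macrophage-like cells the list was at 2697 (control) and 4063 CPM (SM22-SmoM2), a log2 ratio of 0.59 (0.46 to 0.73). In control it was at 5089 CPM in the 14 female cells and 1303 CPM in the 15 male cells, and in the 16 male SM22-SmoM2 cells it was at 4127 CPM. The male cells alone gave a log2 ratio of 1.66 (1.44 to 1.89). Isg15, a ubiquitin-like protein induced by interferon, was at 208 CPM in male control cells (10 of 15 cells with a UMI) and 1076 CPM in male SM22-SmoM2 cells (16 of 16). Its female control cells stood at 1737 CPM. The antiviral membrane gene Ifitm3 was at 604 and 1633 CPM among male cells.

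The 10 genes with the lowest ratios over all immune cells included genes high in cluster 2 and genes that rested on single cells. Cd209a stood at 296 and 5.56 CPM (log2 -5.73, -8.79 to -3.86), with UMIs in 25 and 2 cells. Mgl2 stood at 124 and 5.56 CPM, with UMIs in 21 and 1 cells. Sirpb1c, a signal-regulatory receptor of myeloid cells, stood at 50.8 and 2.78 CPM. Within macrophage-like cells it had 17 and 1 UMIs, too few to be compared. Ly6c2 was found in 14 and 2 cells. Lgals7, Krt14, Krt5 and BC100530 took their rank from 1 control cell, which held at least 98.2% of the control UMIs of each, and Ear2 had 66.7% of 30 UMIs in 1 cell.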

How the data were processed

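The authors sorted Tomato+ dermal cells, prepared 10x Chromium 3′ v2 libraries and counted UMIs with Cell Ranger against mm10 (GRCm38). The version is not given in the sources used here. The authors deposited raw UMI counts, without normalization, for 4680 barcodes. The labels and the methods differ in the length of the EDTA step. Cells with over 10% mitochondrial UMIs were left out. UMIs were summed per library and scaled to 1000000 (CPM). Ratios have exact conditional 95% intervals, CPM exact Poisson ones. With 1 library per group nothing was tested. A gene at 0 was set to 3 counts for a ratio. "At least 2-fold" was the only call, made for genes with at least 30 UMIs over both libraries, or a mean of at least 20 CPM against other cells. Immune cells were clustered by k-means (K = 6, 10 principal components of 1000 variable genes, 50 starts, scikit-learn 1.9.0). Clusters of at least 5 cells were named from the leukocyte list with most markers raised (at least 20 CPM and 2-fold, at least 3 markers), unless another cell type had more markers raised or among the 10 leading genes, a rule set after the clusters were seen. Symbols on 2 rows were summed. Barcodes could not be tied to matrix columns, so shared barcodes were not counted. The named genes are the marker and pathway lists, the 20 highest over other cells, and the 10 highest and 10 lowest between libraries among immune-enriched genes. Fcgr1, Il1rn and other list genes printed as examples, and Siglech, Spib, Ifng, Gzmc and cluster leaders, were picked after their values were seen. Members and lists were chosen with earlier results of these data known. Interval and clustering code was checked on simulated counts. Some list genes are not reported here.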

Additional observations from a re-analysis of the deposited data

Results flagged for a closer look

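In the control library 30 cells with at least 3 immune markers were left out because they carried at least 3 UMIs of Pecam1, Sox10 and Rgs5, with a median of 14 such UMIs. In SM22-SmoM2 there were 3. They lie outside the comparisons above, and 7 of the control cells had all 6 immune markers. The interferon response list was lower in immune than in other cells of the control library (log2 -0.52) and higher in SM22-SmoM2 (log2 0.22). The monocyte list was higher in immune cells of control (log2 0.25) and lower in those of SM22-SmoM2 (log2 -0.34). These opposite directions rest on 1 library each and were not tested.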

How the results depend on the processing

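No paired analysis was possible because each group has 1 library. The values below have no test, and the causes of the changes were not tested. With at least 2 of 6 markers the immune share was 3.33% in control and 2.73% in SM22-SmoM2, and in control it was 1.96% with no UMI of Pecam1, Sox10 and Rgs5 and 3.61% with no limit on them. Genes at least 2-fold higher and lower in SM22-SmoM2 immune cells numbered 139 and 287, and 35 and 52 with cells thinned to 1500 UMIs, 306 and 658 at a minimum of 15 UMIs, 66 and 114 at 60 UMIs. They numbered 87 and 80 in macrophage-like cells, 87 and 125 in male immune cells and 76 and 71 in male macrophage-like cells, with 583 lower without the limit. The MHC class II ratio was -1.54 with at least 4 markers, -1.68 with at least 2, -1.21 without the limit, -1.44 without fibroblast-rich cells, -1.37 thinned, -1.38 as a mean over cells, -1.001 in macrophage-like, -0.83 in male 0.13 in male macrophage-like cells and 0.012 in these without the highest cell of each library. The dendritic cell list (-0.92) was at 0.37 in macrophage-like, -0.080 in male and 0.63 in male macrophage-like cells. The inflammatory list (-0.10) was at -0.012 with no barred UMI, 0.19 without the limit, 0.018 without fibroblast-rich cells, 0.031 thinned, 0.20 as a mean over cells, and -0.53, -0.47 and -0.68 in macrophage-like, male and male macrophage-like cells. The macrophage list (0.76) was at 0.67 with at least 2 markers, 0.91 with no barred UMI, 0.92 without the limit, 0.91 without fibroblast-rich cells, and 0.11, 0.37 and 0.036 in those 3 subsets. The repair list was at 0.44 without fibroblast-rich cells. Leukocyte signalling over other cells was at 4.33 in control, and at 3.84 with at least 2 markers, 4.15 with no barred UMI, 4.13 without the limit, 4.59 without fibroblast-rich cells and 4.44 as a mean over cells. In SM22-SmoM2 it was at 3.43, and at 2.88 with at least 2 markers, 3.28 without the limit, 3.64 without fibroblast-rich cells, 3.799 thinned and 3.64 as a mean over cells. Directions also turned for Mmp13 (-2.42 without fibroblast-rich cells, -3.44 in macrophage-like and -2.19 in male macrophage-like cells, both on few UMIs), for Krt5 (0.41) and Ear2 (0.15) when thinned, and for the monocyte list (0.65) in male macrophage-like cells. The subsets of macrophage-like and male cells were chosen after seeing the data. Depth limits genes under about 30 UMIs.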
